A study of Mus musculus with 12 samples.

Results

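The genes described here are 31 genes of oligodendrocytes and myelin, chosen by name from known oligodendrocyte genes, with earlier results of these data known, out of 24411 gene symbols in the count table. All 31 were found in the table, and all 31 passed the filter on low counts, as did 15199 symbols in all. They were measured by RNA sequencing of bulk medial prefrontal cortex from female mice, 8 to 12 weeks old, in 12 libraries that form 4 groups of 3. Unstressed and stressed wild type (WT) mice were C57BL/6J animals from a commercial breeder (Clea Japan). Unstressed and stressed knockout (KO) mice lacked the T-type calcium channel Cav3.1, were on the same C57BL/6J background and came from the RIKEN BRC, so genotype and source of the animals cannot be told apart. Stressed mice had a forced swim or a tail suspension test, 5 min long, on each of 5 days, and the unstressed mice had no treatment. The time from the last session to tissue collection, and whether each library came from a separate animal, are unknown from the labels. P-values therefore measure the spread between these libraries, which may be technical.

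Oligodendrocytes wrap axons of the central nervous system in myelin, a stack of membrane sheets rich in a few structural proteins and in galactolipids. Precursor cells, which persist in the adult cortex, differentiate under transcription factors such as Olig1, Olig2, Sox10 and Myrf, and the mature cells then switch on the genes of the sheath. In the cortex myelin is sparse in the upper layers and densest in the white matter beneath the deep layers. In bulk tissue, fewer cells of a type and less RNA per cell cannot be told apart.

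Library totals ran from 15469590 to 31082240 estimated counts. Cacna1g, the gene of Cav3.1, stood at 109.4 to 144.1 CPM (read counts scaled to library size with TMM factors) in the 6 WT libraries and at 54.6 to 66 CPM in the 6 KO libraries. Some libraries stood apart for markers of tissue outside the cortex. Of 13 olfactory bulb markers, all 13 were highest in unstressed WT library 1 or 2, where they summed to 1631.9 and 1501.5 CPM, against 78.5 to 307.2 CPM in the other 10 libraries. Of 17 markers of striatal projection neurons, 16 were highest in stressed KO library 1, where they summed to 1046.6 CPM against 299.5 to 355.2 CPM in the other 11 libraries. Markers of layers 6 and 6b, the deepest cortical layers, also summed highest in that library, at 491.3 CPM against 198.6 to 349.6 CPM elsewhere, and 5 of 8 were highest there. Stressed WT library 3 had the highest layer 6 and 6b sum of the 6 WT libraries, 331.7 CPM, below the 349.6 CPM of unstressed KO library 3. Markers of layers 2 and 3 had their lowest sum of all libraries in stressed KO library 1, 275.3 CPM. Their lowest sum of the WT libraries was in stressed WT library 3, 407.7 CPM, and unstressed KO library 3 had 403.8 CPM. The oligodendrocyte genes described here summed to 1708.5 CPM in unstressed KO library 3. They summed to 3500.6 CPM in stressed WT library 3 and to 2983 CPM in stressed KO library 1. The part of cortical layers in these sums was not tested. Meningeal and fibroblast markers summed highest in unstressed WT library 1 (314.7 CPM) and library 2 (364.8 CPM), against 48.6 to 138.6 CPM elsewhere. Ependymal and choroid plexus markers summed to 23.9 CPM in stressed KO library 1 and to 5.91 to 15.5 CPM elsewhere. Oligodendrocyte results that rest on these libraries are given with and without them.

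The libraries of a group differed from each other for these genes, and most in the stressed groups. Stressed WT library 3 was the highest of its group for 30 of the 31 genes, and stressed KO library 1 for 30 of 31 as well. Among all tested genes these libraries were the highest of their groups for 32% and 35.6%. Mbp, which encodes myelin basic protein, measured 506.3, 446.2 and 425.3 CPM in the unstressed WT libraries, in order of their numbers, against 607.3, 593 and 1246.5 CPM after stress in WT. The KO libraries had 485.5, 633.5 and 446.4 CPM without stress, against 1031.8, 480.9 and 460.6 CPM with stress. In each stressed group 1 library thus stood far above the other 2, and the remaining 10 libraries lay at 633.5 CPM or below.

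The median ratio of stressed WT library 3 to the mean of libraries 1 and 2 was 1.48, with a range from 0.958 for Enpp2 to 2.08 for Mbp. In stressed KO library 1 the median ratio to the other 2 libraries was 2.03, from 0.9 for Enpp2 to 2.86 for Opalin. Enpp2 encodes autotaxin, a secreted enzyme that makes lysophosphatidic acid, and it was the exception in both libraries. The highest library exceeded the lowest by a median of 1.56 times in stressed WT and 2.08 times in stressed KO, against 1.17 times in each for all tested genes. In the unstressed groups this ratio was close to that of other genes, at 1.26 in WT (1.24 for all genes) and 1.19 in KO (1.19 for all genes). The score of the 31 genes, their mean log2 CPM centred over the 12 libraries, was -0.21 ± 0.09 (SD, n = 3) for WT without stress, 0.37 ± 0.33 for WT with stress, -0.14 ± 0.05 for KO without stress and -0.02 ± 0.54 for KO with stress.

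**Figure D1:**
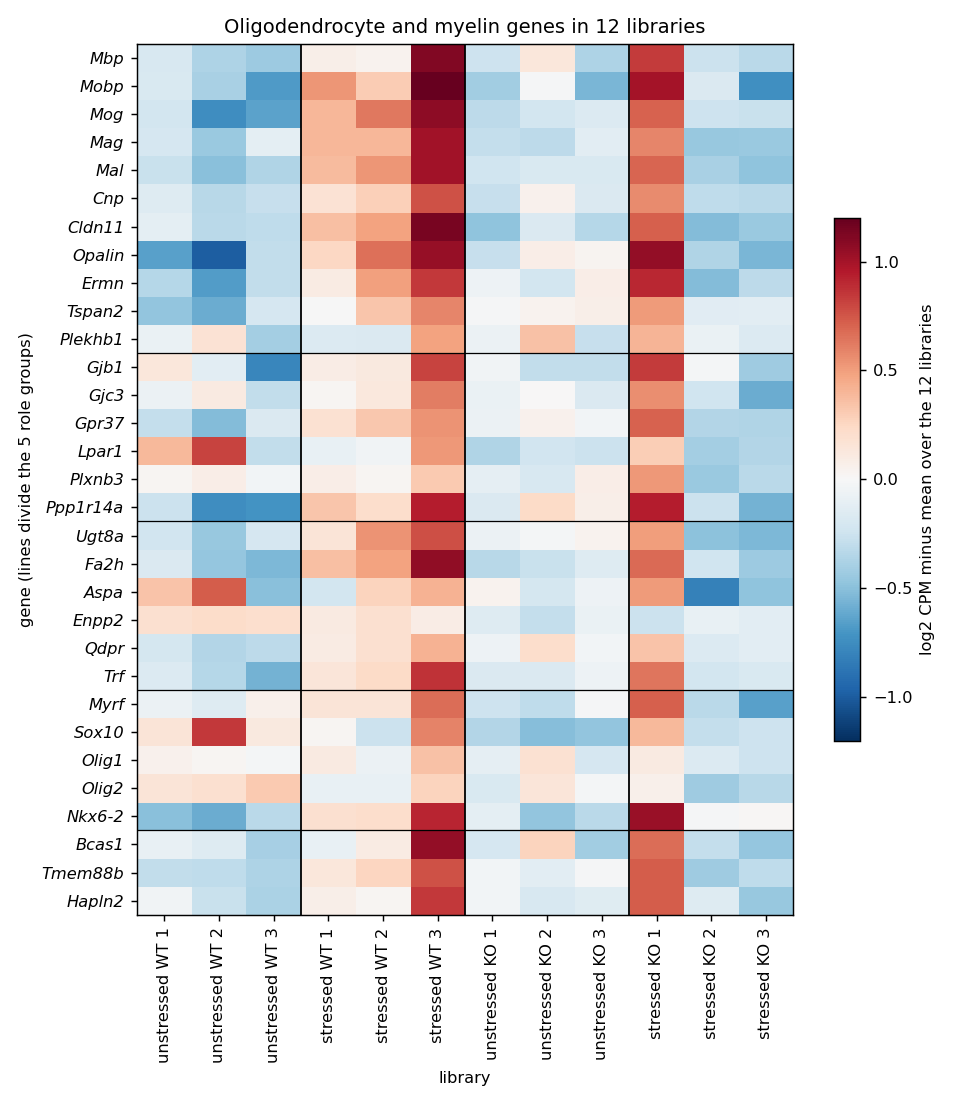
Each cell gives the log2 CPM of 1 gene (rows) in 1 of the 12 libraries (columns) minus that gene's mean over the libraries. Stressed WT library 3 and stressed KO library 1 are the highest of their groups for 30 of 31 genes each, and Lpar1, Aspa and Sox10 are highest in unstressed WT library 2.

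The members differed widely in abundance. Per kilobase of annotated exon, a length that joins all isoforms, Mbp had the highest level, 72.5 CPM per kb. It was followed by Qdpr, dihydropteridine reductase, at 57.1, by the transcription factor Olig1 at 39.4, by Plekhb1 at 37.8 and by Cnp, a phosphodiesterase of myelin, at 36.4 CPM per kb. The lowest levels were those of Aspa, aspartoacylase, which splits N-acetylaspartate, at 1.46, and of the transcription factor Nkx6-2 and the membrane protein Opalin, both at 2.00 CPM per kb. Cnp and Nkx6-2 overlap another gene on the opposite strand (Dnajc7 and Inpp5a), so their values may hold reads of that gene, since it is unknown whether counting used the strand.

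With stress in WT, 15 of the 31 genes rose, 0 fell and 16 did not pass (edgeR quasi-likelihood test, Benjamini-Hochberg adjusted p under 0.05 over all 15199 genes). In this comparison 9.71% of all tested genes rose and 12.1% fell. The median log2 fold change of the 31 genes was 0.69, beside 0.00 for all genes. For 21 genes all 3 stressed libraries lay above all 3 unstressed libraries, and for 1, Enpp2, below them, where 19.4% and 17.2% of all tested genes had such groups. Markers of other tissue moved in the same comparison: layer 2 and 3 markers summed to 577.1 to 613.1 CPM without stress and 407.7 to 512.6 CPM with it (3 of 6 fell, 0 rose), 12 of 13 meningeal markers fell and 13 of 13 olfactory bulb markers fell. Their part in the oligodendrocyte result was not tested.

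Proteins of the sheath made up most of the rises: of 11 genes, 9 rose, with a median log2 fold change of 0.94. Mog, myelin oligodendrocyte glycoprotein on the outermost sheet, measured 18.5, 12.9 and 13.8 CPM without stress. The stressed WT libraries had 28.4, 33.5 and 45.4 CPM. Its groups did not overlap, and it rose by 1.25 ± 0.25 (SE) on the log2 scale (edgeR adjusted p = 0.0136), the smallest p of the 31. Mal, a membrane protein that takes part in sorting myelin components, stood at 72.4, 61.4 and 67.5 CPM in unstressed mice and reached 112.7, 125.1 and 174.4 CPM in stressed mice. Mal rose by 1.03 ± 0.26 (adjusted p = 0.0223). Opalin rose from 3.41, 2.7 and 4.37 CPM to 6.35, 8.43 and 11 CPM, a log2 fold change of 1.3 ± 0.37 (adjusted p = 0.0312). For all 3 genes each stressed library was above each unstressed one, with library 3 the highest. Mag, the myelin-associated glycoprotein that faces the axon, rose by 0.88 ± 0.25. Cldn11, the claudin of myelin tight junctions, rose by 0.95 ± 0.29, and Mobp, a basic protein of myelin, by 1.19 ± 0.38. Cnp (0.69 ± 0.22), the cytoskeletal protein Ermn (0.94 ± 0.31) and the tetraspanin Tspan2 (0.74 ± 0.18) also passed. Mbp had a log2 fold change of 0.83 ± 0.33 and did not pass (adjusted p = 0.0884), and neither did Plekhb1, at 0.17 ± 0.23.

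Mog lies on chromosome 17, 37010743 to 37023398, Mag on chromosome 7, 30899176 to 30914873, and Cnp on chromosome 11, 100574904 to 100591729 (GRCm38, annotated gene bounds). Among the 15 genes that rose, those with a RefSeq entry were searched for words that Myrf, a factor of maturing oligodendrocytes, is known to bind. Of the genes searched, these 3 have such a word upstream of the start, and their upstream sequences are shown for that reason (RefSeq, GRCm38.p6, 5′ to 3′ on the strand of the gene). Of all 31 genes, 8 had no entry and were not searched. Capitals mark each match, on either strand, to the Myrf words CTGGCAC and CTGGTAC and to the words ACAAAG and ACAATG, which Sox proteins such as Sox10 bind.
Mog, chr17:37023399-37023648, minus strand: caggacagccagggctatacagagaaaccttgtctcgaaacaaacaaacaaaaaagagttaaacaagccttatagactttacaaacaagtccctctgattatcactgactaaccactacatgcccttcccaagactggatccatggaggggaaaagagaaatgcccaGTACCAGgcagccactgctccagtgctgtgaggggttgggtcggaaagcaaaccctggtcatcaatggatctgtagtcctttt
Mag, chr7:30914923-30915172, minus strand: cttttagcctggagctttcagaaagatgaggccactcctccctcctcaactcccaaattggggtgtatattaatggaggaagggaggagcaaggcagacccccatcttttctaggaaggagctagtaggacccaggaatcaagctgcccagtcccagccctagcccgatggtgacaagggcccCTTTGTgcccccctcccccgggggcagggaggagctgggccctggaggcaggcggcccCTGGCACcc
Cnp, chr11:100574689-100574903, plus strand: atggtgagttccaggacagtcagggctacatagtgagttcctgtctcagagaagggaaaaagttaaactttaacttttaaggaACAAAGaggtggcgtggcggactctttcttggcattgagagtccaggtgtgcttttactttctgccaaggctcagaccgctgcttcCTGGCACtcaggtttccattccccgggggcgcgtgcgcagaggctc
Mog has 1 Myrf word, on the opposite strand, 83 bases before the RefSeq start. Mag has a Myrf word 9 bases and a Sox word 67 bases before the RefSeq start, and Cnp has them at 81 and 167 bases. The printed Cnp sequence, 215 bases long, stops at the annotated gene start. The RefSeq start of Cnp lies further on, so its positions do not count from the end of that sequence. No match overlapped another. Among the 23 of the 31 genes with an entry in the RefSeq table, 5 had a Myrf word in the 250 bases before the start (Mog, Mag, Cnp, Lpar1 and Hapln2), against 5.88% of 27025 promoters. A Sox word was found in 10 of the 23, against 25.4% of all promoters. These matches describe the letters and not binding, and Lpar1 and Hapln2 did not pass the test for stress in WT.

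Of 6 genes of enzymes and iron transport, 4 rose, with a median log2 fold change of 0.67. Fa2h, the hydroxylase behind the 2-hydroxylated galactolipids of myelin, stood at 12.5, 10.2 and 9.7 CPM in the unstressed group, reached 18.1, 19.7 and 29.4 CPM in the stressed group, and rose by 1.05 ± 0.26 (SE, edgeR adjusted p = 0.0208). Ugt8a, which makes galactosylceramide, rose by 0.81 ± 0.24 (adjusted p = 0.0344). Trf, the iron carrier transferrin, rose by 0.80 ± 0.23 (adjusted p = 0.0329) and Qdpr by 0.54 ± 0.13 (adjusted p = 0.0215). Aspa stood at 10.5, 13.7 and 5.86 CPM in the unstressed group, against 7.12, 10 and 11.1 CPM in the stressed group, and did not pass (log2 -0.09 ± 0.34, adjusted p = 0.861). Its highest and its lowest WT library were both unstressed, so the groups overlapped. Enpp2 stood between 196.6 and 200.9 CPM without stress and between 183.3 and 196.5 CPM with it, a log2 fold change of -0.08 ± 0.07 (adjusted p = 0.454).

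Among 5 transcription factors 1 rose, Nkx6-2, a homeobox factor of oligodendrocytes, from 2.51, 2.36 and 2.85 CPM to 4.06, 4.11 and 6.72 CPM (log2 0.95 ± 0.29, SE, edgeR adjusted p = 0.038). Myrf had a log2 fold change of 0.40 ± 0.27 (adjusted p = 0.305) and Olig1 of 0.12 ± 0.13 (adjusted p = 0.503). Olig2, which marks the lineage from precursor to mature cell, stood at 24.4, 25.1 and 27.4 CPM unstressed, against 20.7, 20.6 and 26.5 CPM stressed (log2 -0.18 ± 0.14, adjusted p = 0.356). Sox10 stood at 24, 38.7 and 23.4 CPM and at 21.9, 18 and 32.4 CPM (log2 -0.25 ± 0.25, adjusted p = 0.48). For both factors the groups overlapped. Sox10, Aspa and Lpar1, a receptor for lysophosphatidic acid, had their highest level of all 12 libraries in unstressed WT library 2, Lpar1 at 27.9 CPM. A list of 5 markers of olfactory ensheathing glia, cells of the olfactory nerve and outer bulb, was added after the data were seen, and Sox10 is 1 of the 5. Unstressed WT libraries 1 and 2 had scores of 0.73 and 1.17 for this list, the other 10 had -0.41 to 0.02, and the part of such cells in the levels of Sox10, Aspa and Lpar1 was not tested.

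Of the 6 genes of junctions, receptors and signalling, Ppp1r14a, an inhibitor of myosin phosphatase, rose by 1.09 ± 0.35 (SE, edgeR adjusted p = 0.0427). Gpr37, a receptor of oligodendrocytes, had 0.68 ± 0.23 (adjusted p = 0.0553) and did not pass. The connexins Gjb1 (0.60 ± 0.32) and Gjc3 (0.36 ± 0.24), the semaphorin receptor Plxnb3 (0.12 ± 0.20) and Lpar1 (-0.21 ± 0.26) did not pass either. The remaining genes were Bcas1 (0.66 ± 0.33), Tmem88b (0.74 ± 0.25, adjusted p = 0.0557) and Hapln2, a link protein of the matrix at nodes of Ranvier (0.59 ± 0.28), and 0 of these 3 passed.

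The number of rises in WT depended on single libraries, as did that of all genes. Without stressed WT library 3 and stressed KO library 1, which were left out because they were high for these same genes, so that the spread within their groups is smaller by construction, 17 genes rose, where 4.19% of all tested genes did. All 15 genes named above were among them, joined by Gpr37 and Tmem88b, and the median log2 fold change was 0.49. The log2 fold changes in that fit were 0.83 for Mal, 1.04 for Mog and 0.39 for Mbp, and its errors and p-values are not read as tests of these genes. Without stressed WT library 3 alone 1 gene passed, Mog, where 4.70% of all genes rose, and without stressed KO library 1 alone 18 did, where 9.78% rose. The count was 0 without stressed WT library 2 and 0 without unstressed WT library 2, where 0% of all genes rose in either fit. It was 3 without unstressed WT library 1 (2.64% of all genes) and 9 without unstressed KO library 1 (7.25%). Over the fits that left out 1 library, the median stayed between 0.49 and 0.86. Without unstressed WT libraries 1 and 2, which leaves library 3 as the only unstressed WT sample, assumed to vary like the other groups, 0 of the 31 and 0% of all genes rose, and the median was 0.75. When the bulb score entered the fit as a covariate, 0 of the 31 and 0% of all genes rose and the median was 0.17. With only the WT groups in the fit 0 of the 31 and 0.00667% of all genes rose, and the median was 0.69.

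**Figure D2:**
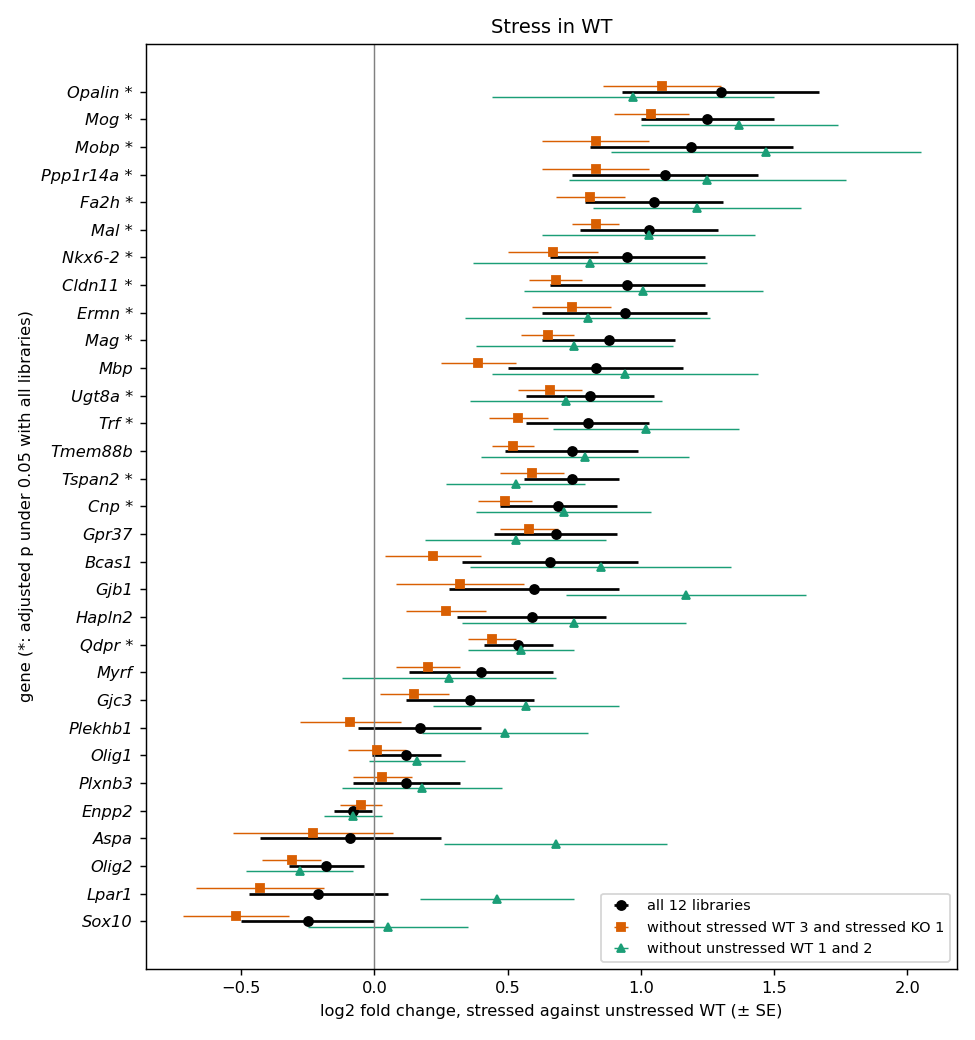
Points give the log2 fold change of each gene between stressed and unstressed WT (x axis, bars ± SE) with all 12 libraries, without stressed WT library 3 and stressed KO library 1, and without unstressed WT libraries 1 and 2. Mog and Mal lie to the right of 0 in all 3 fits, whereas Lpar1, Aspa and Sox10 change sign between fits.

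**Figure D3:**
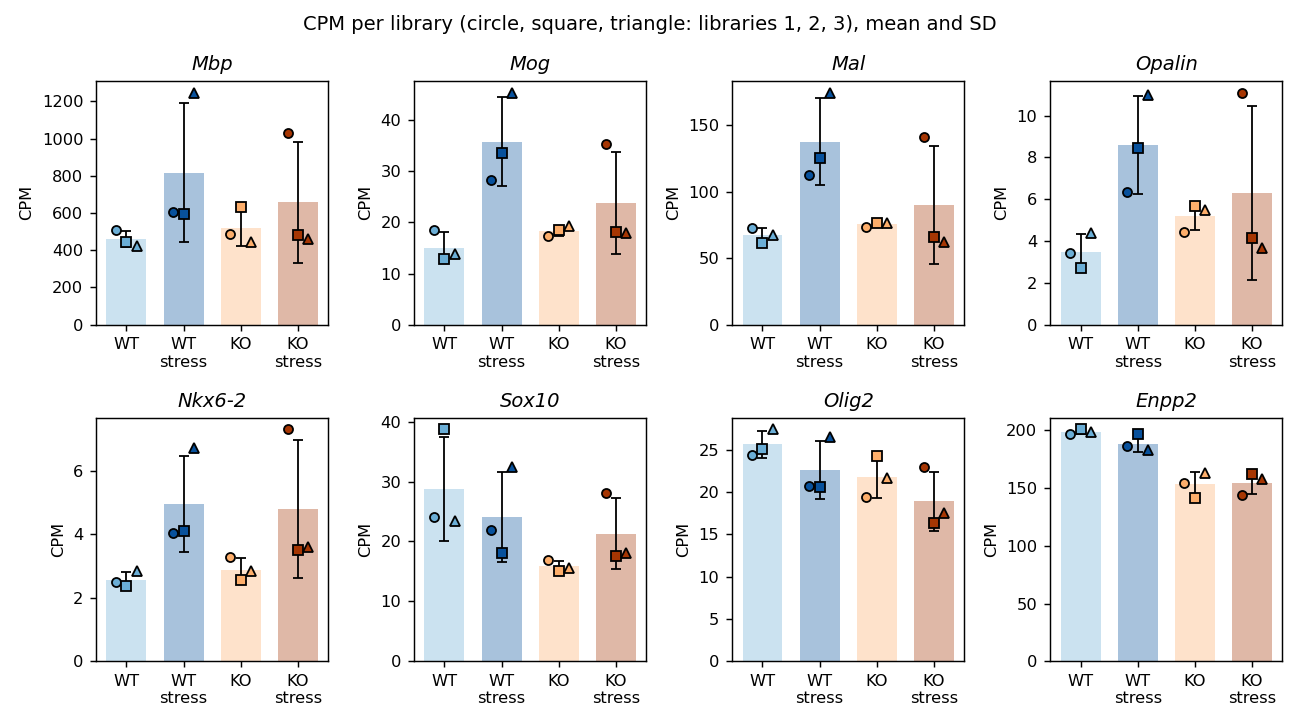
CPM (y axis, from 0) of 8 genes in the 12 libraries, with the mean and SD of the 3 libraries of each group. Mog, Mal and Opalin are higher in all 3 stressed WT libraries than in any unstressed WT library, and in stressed KO library 1 is the high one.

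In KO mice, stress changed 0 of the 31 genes by edgeR, and DESeq2 also called 0. An unadjusted p under 0.05 by edgeR was reached by 1 of the 31, Nkx6-2, and by 1398 of all 15199 tested genes. Of all tested genes 0.00658% rose and 0.0132% fell. The median log2 fold change of the 31 was 0.18. Nkx6-2 stood at 3.28, 2.56 and 2.84 CPM unstressed, against 7.31, 3.52 and 3.59 CPM stressed (log2 0.75 ± 0.29, SE, edgeR adjusted p = 0.494). Sox10 stood at 16.9, 15.1 and 15.5 CPM unstressed, against 28.1, 17.6 and 18.1 CPM stressed (log2 0.44 ± 0.26, adjusted p = 0.626). For these 2 of the 31 genes the groups did not overlap, higher with stress, where 8.45% of all genes had such groups. Mog stood at 17.4, 18.5 and 19.3 CPM unstressed, against 35.3, 18.1 and 17.9 CPM stressed (log2 0.38 ± 0.25, adjusted p = 0.67). Mobp stood at 41.2, 54.4 and 37.5 CPM and at 109.9, 48.9 and 33 CPM (log2 0.54 ± 0.38, adjusted p = 0.685). For both, stressed library 1 was high and the other 2 lay among or below the unstressed libraries.

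Stressed KO library 1 set the direction in KO. With it, 26 of the 31 log2 fold changes were above 0. Without it and stressed WT library 3, 3 were, the median was -0.19, and Mog had -0.03 ± 0.15 (SE) and Mobp -0.11 ± 0.21, with 0 of the 31 passing. Leaving out stressed KO library 1 alone gave the same 3 and -0.19. Mal, at 73.6, 76.3 and 76.7 CPM in unstressed KO, stood at 66.2 and 62.2 CPM in stressed KO libraries 2 and 3 and at 141.1 CPM in library 1. Ugt8a stood at 24.9, 25.6 and 26.8 CPM without stress, at 18.5 and 17.9 CPM in those 2 stressed libraries and at 36.9 CPM in library 1. This is the library with striatal markers at 1046.6 CPM and layer 6 and 6b markers at 491.3 CPM, and the part of other tissue in its oligodendrocyte levels was not tested.

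**Figure D4:**
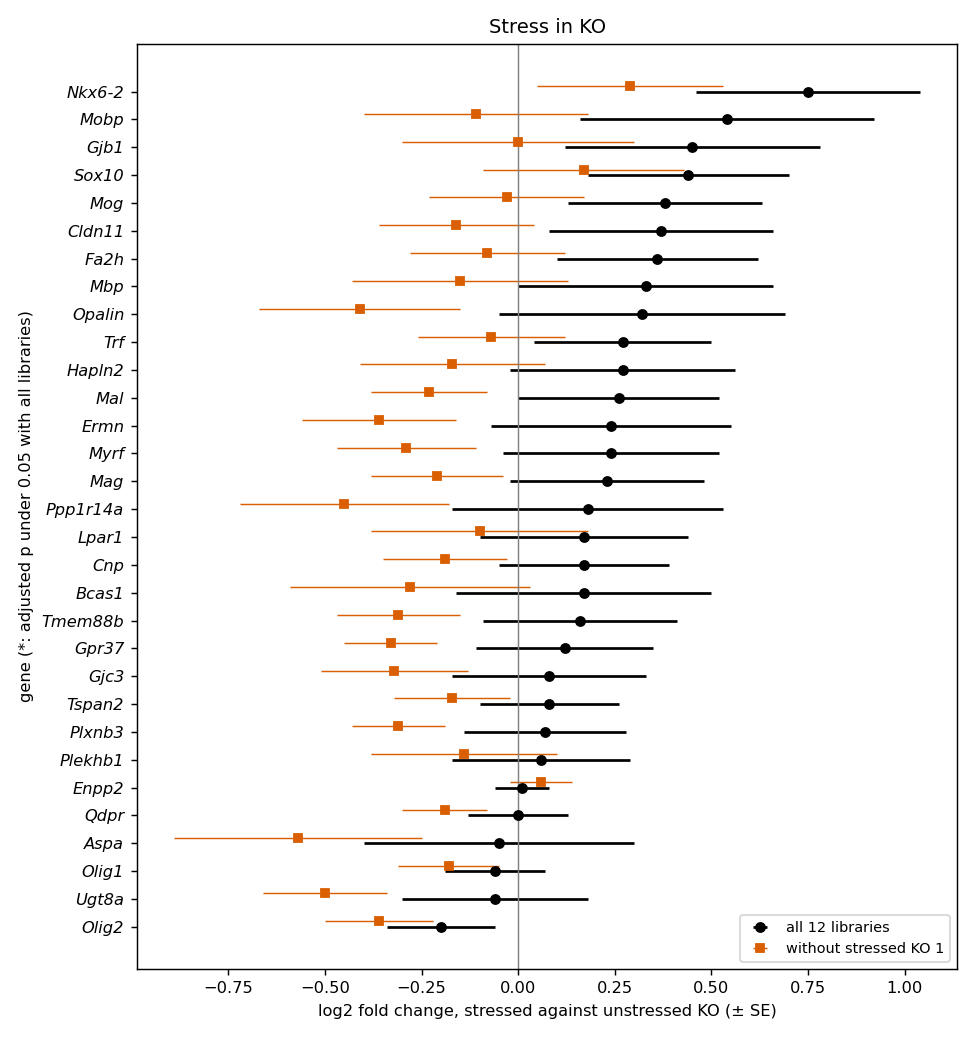
Points give the log2 fold change of each gene between stressed and unstressed KO (x axis, bars ± SE) with all 12 libraries and without stressed KO library 1. With all libraries 26 of 31 points lie above 0, without that library 3 do, and 0 genes passed in either fit.

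Between the genotypes without stress, 2 of the 31 genes were lower in KO and 0 higher, both by edgeR and by DESeq2, with 5 genes at an unadjusted p under 0.05 by edgeR. Of all tested genes 12.1% were lower and 11.2% higher, and 5943 of the 15199 had an unadjusted p under 0.05 by edgeR. This comparison and that of stress in WT share the 3 unstressed WT libraries. Enpp2 stood at 196.6, 200.9 and 198.7 CPM in unstressed WT and at 154.8, 141.8 and 163.2 CPM in unstressed KO, and was lower by a log2 fold change of -0.37 ± 0.07 (SE, edgeR adjusted p = 0.00999). Sox10, at 23.4 CPM or more in unstressed WT and 16.9 CPM or less in unstressed KO, had -0.86 ± 0.25 (adjusted p = 0.0325). Qdpr (0.33 ± 0.13, adjusted p = 0.0878) and Tspan2 (0.45 ± 0.18, adjusted p = 0.091) came next and did not pass. The median of the 31 was 0.12, but -0.34 with the olfactory bulb score as covariate, where 2 of the 31 values were above 0. The 3 unstressed WT libraries had the highest bulb scores, 0.49 to 3.09, against -1.78 to 0.47 in the other groups. The covariate and that group therefore cannot be fully told apart. Without unstressed WT libraries 1 and 2 the median was 0.23, with 23 of the 31 values above 0. With all libraries and no covariate, 9 genes had higher and 3 lower groups without overlap, where 18.5% and 18% of all genes did.

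Single libraries changed these calls. Without unstressed WT library 2, 0 of the 31 and 0.812% of all genes were lower, and Enpp2 had -0.38 ± 0.09 (SE, edgeR adjusted p = 0.0518). Its fold change lay between -0.42 and -0.32 in all fits that left out 1 library. Without any 1 of the unstressed KO libraries Sox10 did not pass and Enpp2 did, where 3.18% to 8.25% of all genes were lower. Without unstressed WT libraries 1 and 2, neither Enpp2 (-0.38 ± 0.11, SE, edgeR adjusted p = 0.215) nor Sox10 (-0.56 ± 0.30, adjusted p = 0.394) passed, where 0.0840% of all genes were lower, and with the olfactory bulb covariate 0 passed, where 0.0658% were. Without stressed WT library 3 and stressed KO library 1, which are not in this contrast but, as high libraries, enter the shared estimate of spread, Tspan2, Gpr37, Ppp1r14a, Qdpr and Tmem88b were higher in KO, 5 of 31 where 9.16% of all genes were. Leaving out unstressed WT library 3 alone made 1 gene higher, Tspan2, and 3 lower, with Lpar1 added, where 17.9% of all genes were higher and 19.4% lower. Leaving out stressed KO library 1 alone made 2 higher, Tspan2 and Qdpr, where 11.1% of all genes were.

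After stress, 0 of the 31 genes passed between the genotypes by edgeR and 7 had an unadjusted p under 0.05, and DESeq2 called 1, Enpp2, lower in KO. Of all tested genes 0.164% were lower and 0.0855% higher, and 1973 of the 15199 had an unadjusted p under 0.05 by edgeR. The median log2 fold change was -0.30, and -0.75 to -0.11 when 1 library was left out, the ends being without stressed KO library 1 and without stressed WT library 3. Enpp2 stood at 186.1, 196.5 and 183.3 CPM in stressed WT and at 144.1, 162.5 and 157.7 CPM in stressed KO (log2 -0.29 ± 0.07, SE, edgeR adjusted p = 0.122). It was the 1 gene of the 31 whose groups did not overlap, where 11.3% of all genes had lower and 10.8% higher groups. Mag stood at 86.2, 86.2 and 131 CPM in stressed WT and at 97.9, 47.6 and 48 CPM in stressed KO (log2 -0.64 ± 0.25, adjusted p = 0.308). Ugt8a (-0.59 ± 0.24, adjusted p = 0.318) and Mal (-0.61 ± 0.26, adjusted p = 0.355) followed. For Mag, Ugt8a and Mal, stressed KO library 1 lay within the WT range and the other 2 KO libraries below it.

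Without stressed WT library 3 and stressed KO library 1, the log2 fold changes were -0.89 for Mal, -0.91 for Cldn11 and -0.85 for Mag, and these 3 of 31 passed as lower in stressed KO, where 0.0979% of all genes did. Without stressed KO library 1 alone, Mag, Mal and Ugt8a passed, where 0.111% of all genes did. Leaving out stressed WT library 3 alone, 0 passed, where 0.104% did, and 7 of the 31 values were above 0. With unstressed WT libraries 1 and 2 left out as well, a choice made after the data were seen, Mog, Mag, Mal, Cldn11, Gpr37, Ugt8a and Fa2h were lower, 7 of 31 where 0.196% of all genes were. Stressed WT library 3 and stressed KO library 1 were chosen as high for these same genes, so their absence lowers the spread. Unstressed WT libraries 1 and 2 were left out for their olfactory bulb markers and are not in this contrast. These passes are a description and no test of a genotype difference.

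The difference between the stress effects in KO and WT was tested as an interaction. By edgeR 0 of the 31 genes passed and 4 had an unadjusted p under 0.05. Of all 15199 tested genes 0% passed in either direction and 4330 had an unadjusted p under 0.05. DESeq2 called 0 of the 31, where it called 6.15% of all genes higher and 6.16% lower. The 4 genes under that unadjusted p were Qdpr (-0.54 ± 0.19, SE, edgeR adjusted p = 0.101), Ugt8a (-0.87 ± 0.34, adjusted p = 0.122), Tspan2 (-0.66 ± 0.26, adjusted p = 0.125) and Mog (-0.87 ± 0.36, adjusted p = 0.141), each negative where the stress difference was smaller in KO. The median over the 31 was -0.52, beside -0.02 for all genes. It was -0.06 with the olfactory bulb score as covariate, with 12 of the 31 above 0. Without unstressed WT libraries 1 and 2 it was -0.55, with 3 of the 31 above 0. It was -0.88 to -0.27 when 1 library was left out, the ends being without stressed KO library 1 and without stressed WT library 3. In the fit without stressed WT library 3 and stressed KO library 1, Mal had -1.06 and was the 1 gene that passed, against -0.78 ± 0.37 (adjusted p = 0.187) with all libraries. That pass too follows a choice of libraries by the level of these genes and is no test of the difference.

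The proportion of sheath genes to lineage factors differed between libraries. The ratio of Mog to Olig2 counts, which does not depend on the scaling of a library, was 0.757, 0.514 and 0.505 in the unstressed WT libraries. It was 1.37, 1.63 and 1.71 in the stressed ones. In KO it was 0.894, 0.762 and 0.894 unstressed, against 1.54, 1.11 and 1.02 stressed. All 6 stressed libraries lay above all 6 unstressed ones. In stressed KO libraries 2 and 3, however, Mog itself, at 18.1 and 17.9 CPM, lay within its unstressed KO range of 17.4 to 19.3 CPM. Olig2, at 16.4 and 17.5 CPM there, lay below its unstressed KO range of 19.4 to 24.3 CPM. This pair of genes was chosen after the values were seen, and no test is given. For Mal and Olig1, chosen likewise, the ratio was 0.829, 0.713 and 0.812 in WT mice without stress, against 1.24, 1.56 and 1.62 with stress. In KO that ratio was 0.937, 0.794 and 1.04 unstressed, against 1.55, 0.879 and 0.876 stressed, so the KO groups overlapped. The score of the 11 sheath genes minus that of the 5 transcription factors was -0.22, -0.54 and -0.40 for WT without stress, against 0.15, 0.38 and 0.38 after stress. The KO libraries had -0.04, 0.15 and 0.02 unstressed, against 0.27, -0.07 and -0.09 stressed.

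**Figure D5:**
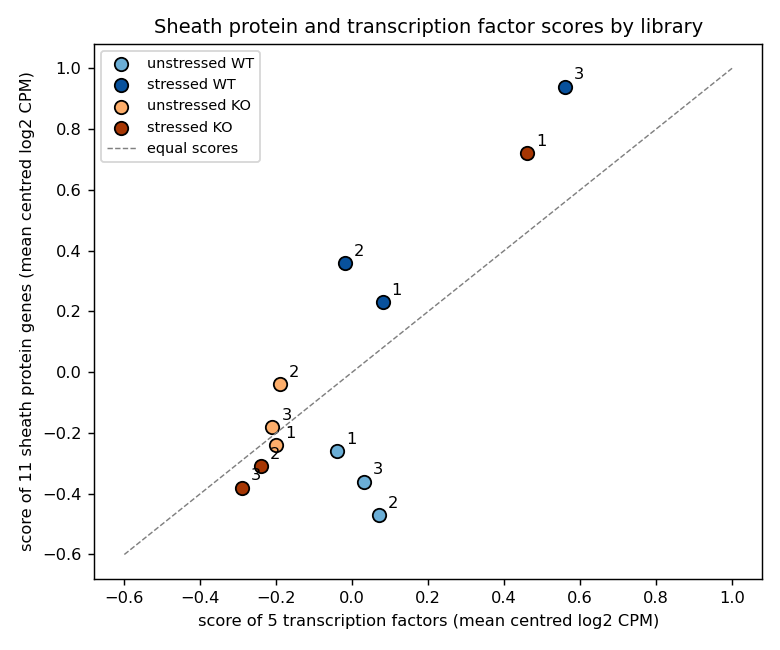
Each point is 1 library, with the score of 5 transcription factors on the x axis and that of 11 sheath genes on the y axis (mean log2 CPM centred over the 12 libraries). Stressed WT library 3, at 0.56 and 0.94, and stressed KO library 1, at 0.46 and 0.72, are high on both axes.

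Of 40 further genes listed as oligodendrocyte and myelin genes, not all of them particular to these cells, 9 rose and 1 fell in stressed against unstressed WT mice. Their median log2 fold change was 0.36. In that comparison 9.71% of all tested genes rose and 12.1% fell. Gamt, an enzyme of creatine synthesis (0.81 ± 0.19, SE, edgeR adjusted p = 0.0169), Omg, oligodendrocyte myelin glycoprotein (0.54 ± 0.14, adjusted p = 0.0216), and Pllp, plasmolipin (0.61 ± 0.18, adjusted p = 0.032), rose. Both libraries rich in olfactory bulb markers, unstressed WT 1 and 2, held the least Omg of all, 99.8 and 98.9 CPM. Library 3 of that group held 142.6 CPM, and stressed WT levels ran from 148.5 to 186.7 CPM. How far bulb tissue shaped the Omg rise was not tested. Apod, apolipoprotein D, which meningeal cells also make, fell by 1.87 ± 0.43 (adjusted p = 0.017). Unstressed WT libraries 1 and 2 had 256.1 and 346.7 CPM, library 3 had 69.7 CPM, and the stressed WT libraries had 50.3 to 77.6 CPM. With stress in KO 0 of the 40 passed, where 0.00658% of all tested genes rose and 0.0132% fell. An unadjusted p under 0.05 by edgeR was found for 3 of the 40 and for 1398 of all 15199 tested genes.

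Among 12 precursor genes in WT mice, stress came with 0 rises and 3 falls, and 4 were lower in unstressed KO than in unstressed WT. Over the whole set of tested genes, the WT stress comparison called 9.71% up and 12.1% down. The genotype comparison without stress called 12.1% of that set lower in KO. The most abundant precursor genes were Tnr, Pdgfra and Lhfpl3. Pdgfra, the growth factor receptor that marks precursors, stood at 52.5, 57.1 and 61.9 CPM unstressed, against 48, 53.8 and 58.4 CPM stressed in WT (log2 -0.10 ± 0.09, SE, edgeR adjusted p = 0.428). Lhfpl3 fell by 1.06 ± 0.23 (adjusted p = 0.0154). Unstressed WT libraries 1 and 2, those with the olfactory bulb markers, had 74.3 and 70.5 CPM and the other 10 had 26 to 37.1 CPM, and the part of bulb tissue in this fall was not tested.

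Of 8 genes of newly forming oligodendrocytes, 2 were lower and 0 higher in KO without stress, and 1 was lower and 0 higher with stress. Of all tested genes 12.1% were lower and 11.2% higher in KO without stress, against 0.164% lower and 0.0855% higher with stress. The most abundant of the 8, the receptor gene Gpr17, stood at 45.7, 46.7 and 51.3 CPM in unstressed WT and 42.1, 48 and 56.5 CPM in stressed WT. The KO libraries had 31.9, 31.8 and 30.7 CPM unstressed, against 29.6, 28.1 and 28.1 CPM stressed, so that all 6 KO libraries lay below all 6 WT libraries. Its log2 fold change in KO was -0.61 ± 0.10 (SE, edgeR adjusted p = 0.00665) without stress and -0.77 ± 0.10 (adjusted p = 0.00376) with stress. Without unstressed WT libraries 1 and 2 it was -0.71 ± 0.13 (adjusted p = 0.119) and -0.77 ± 0.10 (adjusted p = 0.00725). Without stressed WT library 3 and stressed KO library 1 it was -0.60 ± 0.08 (adjusted p = 0.0105) and -0.68 ± 0.09 (adjusted p = 0.0283). With only the compared groups in the fit it was -0.61 ± 0.08 (adjusted p = 0.0528) and -0.77 ± 0.11 (adjusted p = 0.032). Enpp2 had the same order, with the 6 KO libraries at 141.8 to 163.2 CPM and the 6 WT libraries at 183.3 to 200.9 CPM.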

How the data were processed

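For each of 12 libraries the authors deposited a column of estimated counts, not normalised, by gene symbol. The kit keeps the strand, per the labels' protocols. The tools named, per the submitters' processing notes, are RSEM 1.3.1, DESeq2 1.36.0, Trim Galore 0.6.6 and STAR 2.7.9a, with build mm10. Which annotation, filter and strand setting applied was not given in the sources used here. Estimated counts were rounded, filtered by filterByExpr of edgeR (count of at least 10, total of at least 15) and scaled by TMM, and log2 CPM used a prior count of 2. A value of 3 counts, the limit a count of 0 allows, is 0.092 to 0.192 CPM, for counting error only. All comparisons were contrasts in 1 edgeR quasi-likelihood fit of the 4 groups (8 residual degrees of freedom, Benjamini-Hochberg over 15199 genes, threshold 0.05). Libraries of a group differed by a chi-square per degree of freedom of 5.07 to 71.7, so none was counted as a duplicate. R 4.3.3, edgeR 4.0.16, limma 3.58.1 and DESeq2 1.42.0 were used, and the test was tried on simulated data. Gene bounds and exon lengths come from the GENCODE annotation of GRCm38, and promoters from RefSeq.

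The 31 genes, the lists and the alternatives were chosen with earlier results of these data known. Named were all 31 genes for stress in WT; in each other comparison the 4 with the smallest p and those that passed; the 4 further oligodendrocyte genes with the smallest p for stress in WT; and up to 3 of the most abundant genes of each other list. Further values, such as those of Mal and Ugt8a in KO, were picked after they were seen. Alternatives were DESeq2's size factors, no filter, DESeq2, only the compared groups, the replicate number as a block, an olfactory bulb covariate, and leaving out libraries.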

Additional observations from a re-analysis of the deposited data

How the results depend on the processing

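With the olfactory bulb covariate the median log2 fold change of the 31 genes moved from 0.69 to 0.17 for stress in WT, from 0.12 to -0.34 for genotype without stress and from -0.52 to -0.06 for the interaction. Without unstressed WT libraries 1 and 2, the libraries rich in bulb markers, these 3 medians were 0.75, 0.23 and -0.55. The bulb score was highest in the 3 unstressed WT libraries, so the covariate and that group cannot be fully told apart. For stress in WT, 15 rose with all libraries. The count was 0 with only the compared groups in the fit (0.00667% of all genes), 0 with the olfactory bulb score as covariate (0%), 0 without unstressed WT libraries 1 and 2 (0%), and 1 with those 2, stressed WT library 3 and stressed KO library 1 all left out (0.0131%), an alternative added after the data were seen. Almost no gene of the table passed in these fits. Leaving out 1 library at a time gave 0 to 18. For genotype without stress, the 2 lower genes became 0 under the same 4 settings and 0 to 3 when 1 library was left out, and the 0 higher genes became 5 without stressed WT library 3 and stressed KO library 1 and 0 to 2 when 1 library was left out. For genotype with stress, the 0 lower genes became 1 with DESeq2, 3 without stressed WT library 3 and stressed KO library 1, 7 without all 4 libraries, and 0 to 3 when 1 library was left out. For the interaction, 0 lower became 1 without stressed WT library 3 and stressed KO library 1, and 1 without all 4. The cause was not tested.

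Some genes that did not pass changed sign. For stress in WT, Lpar1 was 0.46 without unstressed WT libraries 1 and 2 and 0.23 without all 4 libraries, Aspa 0.68 and 0.54, and Sox10 0.05 in the first of these. With the olfactory bulb covariate Plxnb3 was -0.19, Myrf -0.28 and Olig1 -0.003. Plekhb1 was -0.09 without stressed WT library 3 and stressed KO library 1. Leaving out 1 library gave -0.08 to 0.31 for Plekhb1, -0.45 to 0.07 for Lpar1, -0.37 to 0.19 for Aspa and -0.52 to 0.02 for Sox10. For stress in KO, Mobp was -0.11 and Mog -0.03 in both settings that left out stressed KO library 1 with others, and leaving out 1 library gave -0.11 to 0.84 and -0.03 to 0.54. For genotype without stress, Tspan2 was -0.08 with the covariate. Same-numbered libraries of different groups correlated between -0.25 and 0.36 in their log2 CPM minus the group mean. In groups of 3 libraries such values cannot decide whether the replicate numbers pair the libraries. With the replicate block 14 genes rose with stress in WT (Cnp was lost), 2 were lower in KO without stress, and 0 passed in the other comparisons. For stress in WT, DESeq2's size factors gave 14, no filter 15 and DESeq2 17.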

Other observations

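Genes of axons and nodes of Ranvier, the structures that myelin serves, were read beside the 31 genes. Of 14 tested in WT, 3 were higher after stress and 0 lower by edgeR, where 9.71% of all tested genes rose and 12.1% fell. The 3 were the potassium channel gene Kcna1 (log2 0.67 ± 0.18, SE, edgeR adjusted p = 0.0245) and the neurofilament genes Nefm (0.47 ± 0.13, adjusted p = 0.0292) and Nefl (0.49 ± 0.16, adjusted p = 0.0428), named after their values were seen. Nefl had 209.9, 250.1 and 355.7 CPM in unstressed WT, lowest in the pair of libraries with olfactory bulb markers, and 367.4 to 401.7 CPM in stressed WT. The part of bulb tissue in this difference was not tested. In the same comparison, of 11 astrocyte markers 0 were higher and 3 lower. The astrocyte score was 0.39 and 0.48 in that pair of unstressed WT libraries, 0.01 in unstressed WT library 3, and -0.20 to 0.10 in stressed WT. The part of bulb tissue in the astrocyte falls was not tested. Of 12 microglia markers 0 passed. An unadjusted p under 0.05 by edgeR was found for 1 of the 12 microglia markers and for 5808 of all 15199 tested genes.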
